A study of Homo sapiens with 12 samples.

Results

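The elements described here are the 108 double substitutions of the Pumilio recognition element that change the G at position 2 together with the A at position 6, the T at position 7 or the A at position 8. They were chosen by sequence alone, as every 8-base element that differs from the consensus at position 2 and at exactly 1 of positions 6, 7 and 8, with any base at position 5, and they are 108 of the 1005 8-base elements that all 12 libraries list. Each of the 27 pairs of substitutions is present in 4 forms that differ at position 5, and positions are counted from 1 at the 5′ end. The data come from RBPscan, in which an RNA-binding protein is fused to an RNA-editing domain and the edits left in a recorder mRNA report where the protein has been. A library of recorder mRNAs carrying Pumilio elements was expressed in wild-type HEK293T cells, an established human embryonic kidney line, and the recorder amplicon was sequenced. The fusion of human PUM2 with ADARcdMUT was studied without induction, at 25 ng and at 250 ng, and ADARcdMUT without PUM2 was studied at 1000 ng. Each of these 4 groups holds 3 libraries, described by the series as biological replicates, and all 12 libraries carry the same recorder library. Per the series' design text, doxycycline was used to switch on the fusion. The labels do not say what substance the amounts refer to, and their extraction text names embryos of another species, while the cell line given is HEK293T.

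Pumilio proteins are regulators of mRNA decay and translation whose RNA-binding domain is a curved array of repeats, each of which contacts a single base of the target. The UGU at the 5′ end of the element, which is written TGT in the library, is its most conserved part, and the bases near the 3′ end tolerate more change. ADAR enzymes convert adenosine to inosine, which is read as guanosine after reverse transcription, so that edits accumulate where the fused protein stays near the recorder. A change at position 2 breaks the UGU, and the 108 elements pair that change with a change at the 3′ end.

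The elements whose values are given most fully below are printed here, 5′ to 3′ as DNA, with the substituted bases in capitals. The first 4 carry G2C with T7G and differ only at position 5, the next 3 carry A6G beside a T at position 5, which leaves the letters TGTA at positions 5 to 8, and the others were raised or lowered in a comparison or had the largest departures from the single substitutions.
TCTATAGA: tCtataGa
TCTAAAGA: tCtaaaGa
TCTACAGA: tCtacaGa
TCTAGAGA: tCtagaGa
TTTATGTA: tTtatGta
TATATGTA: tAtatGta
TCTATGTA: tCtatGta
TATATATT: tAtatatT
TTTACAAA: tTtacaAa
TATAATTA: tAtaaTta
TTTAAACA: tTtaaaCa
TCTAAACA: tCtaaaCa
TCTATATT: tCtatatT

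The libraries held between 11235321 and 25127959 reads, and the 108 double substitutions took between 8.76% and 10.6% of them. The element with the fewest reads had 2878 in its library, and the median over the 108 elements was between 8652 and 22640 reads in a library. The editing level of an element is the number of edits divided by the 7 recorder adenosines of each of its reads, in percent. Tests used log2 odds, the log2 of edited over unedited adenosines. Because induction raised editing of the whole recorder library, a change is given either as it stands or relative to the library median, that is after subtracting each library's median over all 1006 listed entries.

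Every one of the 108 double substitutions was edited more once the fusion was induced, and as a class they stood close to the library as a whole. The median level over the 108 elements was 1.78% ± 0.0839 in non-induced libraries, 4.24% ± 0.153 at 25 ng and 7.74% ± 0.139 at 250 ng of the fusion, and 1.92% ± 0.133 with ADARcdMUT alone (mean of the library medians ± SD, n = 3 libraries each). Over all entries the same medians were 1.82% ± 0.0991, 4.34% ± 0.194, 7.87% ± 0.0991 and 1.95% ± 0.120. Of the 1006 entries, 756 are double substitutions of this element, the 108 included. The library median therefore mostly reflects double substitutions and is not a background of unrelated elements. At 250 ng the 4 consensus forms, which keep TGTA at positions 1 to 4 and ATA at positions 6 to 8, had a median of 13.3% ± 0.288, so the double substitutions lay near the library median and far below the consensus. The 12 single substitutions at position 2 had a median of 8.66% ± 0.263 at 250 ng, and the 36 single substitutions at positions 6, 7 and 8 had 9.71% ± 0.0574. The classes of 108 elements that pair a change at position 1, 3 or 4 with the same 3′ changes had medians of 7.66%, 7.81% and 7.86% at 250 ng.

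The absolute increase was called for 108 of 108 elements in each comparison of the induced fusion, with limma at an adjusted p under 0.05. The background share called higher was 100% of all entries at 250 ng and at 25 ng against non-induced, at 250 ng against 25 ng, and at both amounts against ADARcdMUT, so the count carries nothing particular to the double substitutions. The median increase in log2 odds was 2.22 at 250 ng against non-induced, with a range of 1.91 to 2.64, and 1.29 at 25 ng against non-induced. Between 250 ng and 25 ng it was 0.93. In percent, the ratio of the mean level at 250 ng to that in non-induced libraries ran between 3.53-fold and 5.76-fold over the 108 elements. The share of reads with at least 1 edit had a median of 22.1% ± 0.478 at 250 ng and 6.78% ± 0.0499 in non-induced libraries, and each edited read carried a median of 2.46 ± 0.0160 and 1.83 ± 0.0763 edits in those groups (n = 3 libraries each), so both the share of edited reads and the edits per edited read were higher at 250 ng. Over all entries those medians were 22.3% and 6.99% for the share, and 2.48 and 1.83 for the edits per edited read.

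Relative to the library median, 7 of the 108 double substitutions were higher and 3 were lower at 250 ng than in non-induced libraries (limma, adjusted p under 0.05 over all 1006 entries). These are 6.48% and 2.78% of the class, against a background of 9.64% of all entries called higher and 3.38% called lower. The median relative change was 0.02 over the 108 elements, with a range of -0.30 to 0.44, and 0.01 over all entries. The 7 higher elements were TATATATT, TTTATGTA, TTTACAAA, TTTACTTA, TATATAAA, TCTATGTA and TATAATTA. The 3 lower elements were TCTATAGA, TCTAAAGA and TCTACAGA, all of which carry G2C with T7G. The number called was 4, 6 and 4 without replicate 1, 2 or 3 of the 250 ng libraries, and 6, 7 and 10 without replicate 1, 2 or 3 of the non-induced libraries.

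The elements in which A6G stands beside a T at position 5 regain the letters TGTA further along, at positions 5 to 8, and 3 of the 4 highest editing levels of the class at 250 ng were theirs. TTTATGTA had 9.70%, 9.85% and 9.79% at 250 ng, against 1.54%, 2.04% and 1.87% in non-induced libraries. TATATGTA had 9.36%, 9.24% and 9.32% at 250 ng, against 1.81%, 2.08% and 2.01% in non-induced libraries. TCTATGTA had 8.96%, 8.84% and 9.36% at 250 ng, against 1.73%, 1.98% and 1.76% in non-induced libraries. Their levels at 250 ng ranked 44, 62 and 80 among the 1006 entries, while in non-induced libraries their means were 1.82%, 1.96% and 1.83%, against a class median of 1.78%. TTTATGTA was higher by 0.36 (SE 0.08) relative to the library median, with a limma adjusted p of 0.00809, and TCTATGTA by 0.22 (SE 0.06), with a limma adjusted p of 0.0207. TATATGTA had a relative change of 0.15 (SE 0.08) and did not pass (limma adjusted p = 0.214), although its 3 libraries at 250 ng stood above the 3 non-induced ones on this scale. The other 9 elements with A6G, which have another base at position 5, had relative changes between -0.14 and 0.07 with a median of -0.05. The other 24 elements with T at position 5, which lack A6G, had changes between -0.30 and 0.44 with a median of 0.12, and mean levels at 250 ng of up to 9.08%, so the changes of the 3 elements with TGTA at positions 5 to 8 lie within the range of the other elements with T at position 5. The call for TTTATGTA was lost only without non-induced replicate 1, where the limma adjusted p was 0.0507. The call for TCTATGTA was lost without replicate 1 or 3 of the 250 ng libraries and without replicate 1 or 3 of the non-induced libraries, with a limma adjusted p of up to 0.107.

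The elements with TGTA at positions 5 to 8 were also high at 25 ng. TTTATGTA had 5.07%, 5.51% and 4.88% at 25 ng, TATATGTA had 4.91%, 5.34% and 4.76%, and TCTATGTA had 4.72%, 5.52% and 4.57%. Relative to the library median they differed from non-induced libraries by 0.27, 0.10 and 0.19 in log2 odds, with limma adjusted p of 0.0526, 0.478 and 0.0535, so none was called at 25 ng. With ADARcdMUT alone, TTTATGTA had 2.16%, 1.61% and 1.79%, which overlapped its non-induced values. At 250 ng against ADARcdMUT alone, relative to the library median, TTTATGTA was higher by 0.42 and TCTATGTA by 0.18 (limma adjusted p = 0.00223 and 0.0494). TATATGTA changed by 0.20 and did not pass (limma adjusted p = 0.0957). At 25 ng against ADARcdMUT alone, TCTATGTA and TATATGTA did not pass (limma adjusted p = 0.117 and 0.242).

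TATATATT, which carries G2A with A8T, had the largest relative change of the class, but its call depended on every library. It had 8.61%, 8.91% and 9.72% at 250 ng, against 1.42%, 1.64% and 1.66% in non-induced libraries, a relative change of 0.44 (SE 0.13, limma adjusted p = 0.0353). The 3 values at 250 ng were among the highest of the class and those in non-induced libraries among the lowest. Leaving out any 1 of the 6 libraries of the 2 groups ended the call, with a limma adjusted p of up to 0.150 and a change between 0.39 and 0.48. TATATATG, with A8G in place of A8T, had a relative change of 0.31 (limma adjusted p = 0.0579), and TTTATATT, with G2T in place of G2A, had 0.24 (limma adjusted p = 0.190), and neither passed. Over the 12 elements with A8T the median relative change was 0.11, and 10 were above 0.

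TTTACAAA, which carries G2T with T7A, kept its call whichever library was left out. It had 7.90%, 8.02% and 8.26% at 250 ng, against 1.49%, 1.69% and 1.54% in non-induced libraries. Its relative change was 0.25 (SE 0.05, limma adjusted p = 0.00521), and without any 1 library the limma adjusted p was at most 0.0374. At 250 ng it stood close to the library median of 7.87%, and its non-induced levels lay below the class median of 1.78%. Relative to ADARcdMUT alone its change was negative and did not pass, at -0.10 for 250 ng (limma adjusted p = 0.261) and -0.15 for 25 ng (limma adjusted p = 0.0967). The other 3 elements called higher had smaller or less certain changes. TATATAAA (G2A with T7A) changed by 0.23 (limma adjusted p = 0.0293), TTTACTTA (G2T with A6T) by 0.23 (limma adjusted p = 0.0492), and TATAATTA (G2A with A6T) by 0.21 (limma adjusted p = 0.0290). For TATAATTA too the change at 250 ng was negative against ADARcdMUT alone, at -0.18 (limma adjusted p = 0.0539). The calls for TATATAAA and TTTACTTA were lost without any 1 of the 3 libraries at 250 ng and without non-induced replicate 1 or 2, with limma adjusted p of up to 0.119 and 0.195. The call for TATAATTA was lost without replicate 1 or 3 of the 250 ng libraries and without non-induced replicate 1 or 2, with a limma adjusted p of up to 0.159.

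The pair G2C with T7G was the only one of the 27 substitution pairs with elements called lower at 250 ng against non-induced. TCTATAGA had 7.51%, 7.57% and 7.89% at 250 ng, against 1.95%, 2.36% and 2.19% in non-induced libraries. TCTAAAGA had 7.53%, 7.68% and 7.69% at 250 ng, against 1.92%, 2.28% and 2.12% in non-induced libraries. TCTACAGA had 7.58%, 7.82% and 7.60% at 250 ng, against 1.95%, 2.02% and 2.24% in non-induced libraries. Without induction these were the 3 highest levels of the class, with means of 2.17%, 2.11% and 2.07%, while at 250 ng they were just below the library median. The relative changes were -0.30 (SE 0.07, limma adjusted p = 0.00650), -0.26 (SE 0.06, limma adjusted p = 0.00460) and -0.23 (SE 0.06, limma adjusted p = 0.0277). TCTAGAGA, the form with G at position 5, had 7.52%, 7.44% and 7.73% at 250 ng, against 1.75%, 2.13% and 1.93% in non-induced libraries. Its relative change of -0.15 did not pass (limma adjusted p = 0.185), although its groups did not overlap on the relative scale. The calls for TCTATAGA and TCTAAAGA held without any 1 library, with limma adjusted p of at most 0.0326 and 0.0261. The call for TCTACAGA was lost without any 1 of the 3 libraries at 250 ng and without non-induced replicate 1 or 3, with a limma adjusted p of up to 0.126. Against ADARcdMUT alone at 250 ng, TCTATAGA changed by -0.14 (limma adjusted p = 0.188) and TCTACAGA by -0.12 (limma adjusted p = 0.220). Neither passed there, while TCTAAAGA did, at -0.26 (limma adjusted p = 0.00475). The 8 elements with T7G beside G2A or G2T had relative changes between -0.15 and 0.14 with a median of -0.01, and the 32 elements with G2C and another 3′ change had changes between -0.17 and 0.22 with a median of -0.01. No element of either set was called lower, and the difference between these sets and the 4 elements was not tested. Among the elements that did not pass, the lowest changes were -0.18 in TATAGATC (limma adjusted p = 0.0816) and -0.17 in TCTAGATG (limma adjusted p = 0.0528).

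At 25 ng the 3 elements with G2C and T7G that were lower at 250 ng were again lower, and TATATATT and TTTACAAA were again higher. Against non-induced libraries, 3 of 108 were higher and 3 were lower, which is 2.78% each way, with 7.06% of all entries called higher and 2.19% called lower (limma). The comparison shares its non-induced libraries with that at 250 ng, so the values are given side by side and are not independent. TCTATAGA had 4.39%, 4.11% and 4.13% at 25 ng, TCTAAAGA had 4.15%, 4.40% and 4.34%, and TCTACAGA had 4.30%, 4.27% and 4.15%. Their relative changes at 25 ng were -0.30, -0.23 and -0.22, with limma adjusted p of 0.00859, 0.0162 and 0.0421. The higher elements were TATATATT with 0.45 (limma adjusted p = 0.0410), TTTACAAA with 0.20 (limma adjusted p = 0.0310) and TTTAAATT, which carries G2T with A8T, with 0.20 (limma adjusted p = 0.0430). Without replicate 1, 2 or 3 of the 25 ng libraries 1, 0 and 3 elements were called, and without replicate 1, 2 or 3 of the non-induced libraries 3, 6 and 4. The call for TCTATAGA was lost only without replicate 2 of the 25 ng libraries, where the limma adjusted p was 0.0602. Those for TTTACAAA and TCTAAAGA were lost without replicate 1 or 2 of the 25 ng libraries and non-induced replicate 3, and also without non-induced replicate 1 for TTTACAAA and replicate 2 for TCTAAAGA. Those for TTTAAATT and TCTACAGA were lost without any 1 of the 25 ng libraries and non-induced replicate 1 or 3, and that for TATATATT without any 1 of the 6 libraries. In these fits the limma adjusted p was at most 0.174.

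No double substitution was called different between 250 ng and 25 ng relative to the library median. With limma 0 of 108 were called in either direction, and 0 had an unadjusted p under 0.05. The background was 0% of all entries each way. Of all 1006 entries, 2 were higher and 2 lower at an unadjusted p under 0.05. That share is far under 0.05, so the fit was conservative here, and 0 calls do not show that the relative changes were equal. The median relative change was 0.02, and its range was -0.08 to 0.14. Quasi-binomial models and the other settings tried also called 0 members.

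Against ADARcdMUT alone, which contains the editing domain without PUM2, 7 double substitutions were higher and 4 were lower at 250 ng relative to the library median. These are 6.48% and 3.70% of the class, with 10.3% of all entries called higher and 4.37% called lower (limma). TATATATT was higher by 0.51 (SE 0.13, limma adjusted p = 0.0141), TTTATGTA by 0.42 (SE 0.08, limma adjusted p = 0.00223) and TTTATATT by 0.38 (SE 0.11, limma adjusted p = 0.0342). With ADARcdMUT alone TATATATT had 1.37%, 2.14% and 1.38%, and TTTATATT had 1.41%, 1.94% and 1.53%, so in both replicate 2 stood above the other 2 libraries. The lower elements were TCTAGAGA (-0.26, limma adjusted p = 0.0194), TCTAAAGA (-0.26, limma adjusted p = 0.00475), TCTAGTTA (-0.23, limma adjusted p = 0.0326) and TCTAGATC (-0.22, limma adjusted p = 0.0335). All 4 carry G2C, and 3 of them have G at position 5. TTTATGTA and TCTAAAGA kept their calls without any 1 library, and TATATATT lost its call only without replicate 3 of the 250 ng libraries, where the limma adjusted p was 0.0705. The calls for TTTATATT and TCTAGAGA were lost without any 1 of the 250 ng libraries and without ADARcdMUT replicate 1 or 3, and the call for TCTAGTTA without replicate 1 or 3 of the 250 ng libraries and ADARcdMUT replicate 2 or 3, with limma adjusted p of up to 0.105, 0.0771 and 0.147. Counts were 3, 5 and 2 without replicate 1, 2 or 3 of the 250 ng libraries, and 13, 9 and 17 without replicate 1, 2 or 3 of ADARcdMUT.

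At 25 ng against ADARcdMUT alone, 4 double substitutions were higher and 4 were lower, 3.70% each way, with 7.55% of all entries called higher and 2.49% called lower (limma). The comparison shares its 25 ng libraries with the test against non-induced cells and its ADARcdMUT libraries with the test of 250 ng. TATATATT was higher by 0.52 (limma adjusted p = 0.0148), TATACATT by 0.36 (limma adjusted p = 0.00992) and TTTATGTA by 0.34 (limma adjusted p = 0.0148). Of the lower elements, TCTAGATC changed by -0.26 (limma adjusted p = 0.0199), TCTAAAGA by -0.22 (limma adjusted p = 0.0148) and TATAATTA by -0.21 (limma adjusted p = 0.0286). TCTAGATC also had the lowest level of the class at 250 ng, with 6.94%, 7.01% and 6.96%, which ranked 1003 of 1006 entries. Leaving out replicate 1, 2 or 3 of the 25 ng libraries left 2, 1 and 4 calls, and leaving out replicate 1, 2 or 3 of ADARcdMUT gave 12, 11 and 12. Each of the 6 calls named was lost without replicate 2 of the 25 ng libraries. TATACATT, TTTATGTA, TCTAAAGA and TATAATTA were also lost without replicate 1, TATATATT, TCTAGATC and TATAATTA without replicate 3, TCTAGATC without ADARcdMUT replicate 1 and TATAATTA without ADARcdMUT replicate 2, with limma adjusted p of up to 0.103.

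With ADARcdMUT alone against non-induced libraries, 2 double substitutions were higher relative to the library median, TATAATTA and TTTACAAA, and they were the only entries called, 0.199% of all 1006 higher and 0% lower (limma). TATAATTA had 2.41%, 2.39% and 2.05% with ADARcdMUT, against 1.53%, 1.66% and 1.73% in non-induced libraries. TTTACAAA had 2.29%, 2.24% and 1.88% with ADARcdMUT, against 1.49%, 1.69% and 1.54% in non-induced libraries. The groups did not overlap in either element, and the lowest ADARcdMUT value was that of replicate 3 in both. The relative changes were 0.39 (SE 0.06) and 0.35 (SE 0.05), both at 0.00581 for the limma adjusted p, and both calls held without any 1 library (limma adjusted p of at most 0.0387). Both calls were lost on the arcsine square root scale, in a fit of the 2 groups alone and in the quasi-binomial model. Without ADARcdMUT replicate 3 the number called was 6. In absolute editing the same 2 elements were called, with increases of 0.49 and 0.45 in log2 odds (limma adjusted p = 0.00943 and 0.0183), also 0.199% of all entries higher and 0% lower. That absolute count was 2 (1 of them lower), 0 and 21 without ADARcdMUT replicate 1, 2 or 3, and 0, 2 and 1 without non-induced replicate 1, 2 or 3.

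Median levels at 250 ng were compared by the base put in at position 2 and by the base at position 5, as a description. The 36 elements with G2A had a median level of 7.97% ± 0.218, the 36 with G2T had 7.79% ± 0.117 and the 36 with G2C had 7.52% ± 0.109 (mean of library medians ± SD, n = 3 libraries), with G2A and G2T overlapping within their spread. In non-induced libraries the same medians were 1.79%, 1.76% and 1.78%. The 4 single substitutions with each base were in the same order at 250 ng, at 9.73% for G2A, 8.55% for G2T and 8.04% for G2C. By the base at position 5, the medians at 250 ng were 8.09% ± 0.185 for T, 7.82% ± 0.161 for C, 7.68% ± 0.108 for A and 7.54% ± 0.0983 for G over 27 elements each, and neighbouring bases in that order overlapped for T and C, for C and A and for A and G. Relative to the library median, 24 of the 27 elements with T at position 5 and 7 of the 27 with G were above 0 in the comparison of 250 ng with non-induced libraries, with median changes of 0.15 and -0.06. G at position 5 was also lowest among the consensus forms, where TGTAGATA had 11.5% ± 0.195 at 250 ng and the other 3 forms had means between 13.2% and 13.9%. These medians are descriptions of sets of elements that share bases, and no test was made over them. The SDs are between libraries, and all sets were measured in the same libraries. Overlap of the ranges therefore does not show whether sets differed within each library.

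By the 3′ position changed, the medians were closer together. The 36 elements changed at position 6 had a median of 7.76% ± 0.138 at 250 ng, those changed at position 7 had 7.75% ± 0.158 and those changed at position 8 had 7.71% ± 0.113. These ranges between libraries overlap, with the same limit. Among single 3′ changes the medians at 250 ng ran between 7.62% for A8C and 7.97% for T7A, over 12 elements each. Relative changes at 250 ng against non-induced had medians between -0.03 and 0.04 for 7 of the 9 changes, with 0.11 for A8T and -0.09 for T7G as the exceptions.

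ATTTA, the core of AU-rich elements that many mRNA decay factors bind, is present in the 3 elements with T at position 5 and A6T. TATATTTA had 7.96%, 7.91% and 8.16% at 250 ng, against 1.47%, 2.10% and 1.71% in non-induced libraries. TCTATTTA had 7.38%, 7.47% and 7.75% at 250 ng, against 1.29%, 1.67% and 1.61% in non-induced libraries. TTTATTTA had 7.72%, 8.02% and 7.87% at 250 ng, against 1.47%, 1.85% and 1.55% in non-induced libraries. Their levels at 250 ng lay on both sides of the library median, and their relative changes of 0.09, 0.20 and 0.18 did not pass (limma adjusted p = 0.689, 0.0963 and 0.185). TCTATTTA was also among the 3 lowest of the class in non-induced libraries, with a mean of 1.53%, beside TCTAAATT with 1.51% and TTTACTTA with 1.56%.

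The question of what a 3′ change adds once position 2 is already changed was asked by setting each double substitution against the single substitution at position 2 with the same base at position 5. At 250 ng against non-induced, the double rose less than the single in 25 of 108 pairs and more in 1 (limma over all 1512 pairs of a double with either of its singles). Over all those pairs 45.3% were called lower and 0.926% higher, and over the 216 pairs that set any double against its single at position 2 the shares were 23.6% and 0.926%. The median difference was -0.18 in log2 odds, and 98 of 108 were below 0. The largest was TCTATAGA against TCTATATA. The double had 7.51%, 7.57% and 7.89% at 250 ng and 1.95%, 2.36% and 2.19% in non-induced libraries, and the single TCTATATA had 8.40%, 8.80% and 9.04% at 250 ng and 1.57%, 1.38% and 1.66% in non-induced libraries. The double was thus below the single at 250 ng and above it without induction, a difference of -0.71 (SE 0.12, limma adjusted p = 0.000274) that held without any 1 library.

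TCTATATT and TCTATATG were set against the same single TCTATATA and rose less, with differences of -0.44 (SE 0.13, limma adjusted p = 0.0136) and -0.43 (SE 0.11, limma adjusted p = 0.00421), so these 3 differences share an element. TTTACCTA and TTTACGTA rose less than TTTACATA, with differences of -0.46 (limma adjusted p = 0.0277) and -0.45 (limma adjusted p = 0.0162). The only pair in which the double rose more was TCTAAATT against TCTAAATA, by 0.21 (SE 0.08, limma adjusted p = 0.0430). TCTAAATT had 7.28%, 7.55% and 7.63% at 250 ng and 1.47%, 1.51% and 1.56% in non-induced libraries, and TCTAAATA had 7.65%, 8.02% and 8.21% at 250 ng and 1.74%, 1.96% and 1.90% in non-induced libraries, so the double was the lower of the pair in both groups. Without non-induced replicate 2 the difference for TCTATATT did not pass (limma adjusted p = 0.0579), and that for TTTACGTA was lost without replicate 1 of the 250 ng libraries or non-induced replicate 1 or 2 (limma adjusted p of up to 0.0670). Those for TTTACCTA and TCTAAATT were each lost without any 1 library at 250 ng, for TTTACCTA also without non-induced replicate 1 or 2 and for TCTAAATT also without non-induced replicate 2 or 3, with limma adjusted p of up to 0.133 and 0.122. Pairs called numbered 16, 13 and 13 without replicate 1, 2 or 3 of the 250 ng libraries and 28, 14 and 31 without replicate 1, 2 or 3 of the non-induced libraries. By 3′ change, T7G had the most pairs called lower, 7 of 12, and A6T and T7C the fewest, 1 of 12 each.

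Set against an element already changed at its 3′ end, most double substitutions rose less, at a share close to that of other doubles. Against the single substitution at position 6, 7 or 8, the double rose less in 73 of 108 pairs and more in 0 at 250 ng (limma), with a median difference of -0.34 and 102 of 108 below 0. Over all 648 pairs of a double with its single at position 6, 7 or 8, 69.9% were called lower and 0.463% higher. With an unadjusted p under 0.05, 84 of the 108 pairs differed, and 504 of all 648. TCTATATT had 7.27%, 7.85% and 8.04% at 250 ng and 1.78%, 1.77% and 1.86% in non-induced libraries, and the single TGTATATT had 11.4%, 11.7% and 12.3% at 250 ng and 1.32%, 1.88% and 1.77% in non-induced libraries. All 3 libraries at 250 ng were lower for the double, and the difference was -0.82 (SE 0.14, limma adjusted p = 0.000298). The next largest were TCTATAGA against TGTATAGA with -0.77 (limma adjusted p = 1.19e-05), TCTAAGTA against TGTAAGTA with -0.71 (limma adjusted p = 0.000243), TTTAAATG against TGTAAATG with -0.68 (limma adjusted p = 0.000173) and TCTACAGA against TGTACAGA with -0.67 (limma adjusted p = 0.000150). All 5 held without any 1 library. By base at position 2, 30 of the 36 pairs with G2C, 23 of 36 with G2T and 20 of 36 with G2A were called lower. By position, the count was 31 of 36 at position 8, 22 of 36 at position 7 and 20 of 36 at position 6.

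T7C was the 3′ change with the fewest pairs called against the 3′ single. Of the 12 elements with T7C, 2 rose less than the T7C single and the median difference was -0.00, with 6 below 0 and 6 above, while A8G and A8T had 11 of 12 called lower, with medians of -0.38 and -0.46. The T7C single TGTAAACA lay near the library median at 250 ng, and the levels of the other T7C singles are not given here. TGTAAACA had 7.88%, 8.15% and 8.25% at 250 ng and 1.83%, 2.06% and 1.99% in non-induced libraries. The double TTTAAACA had 7.81%, 7.79% and 7.90% at 250 ng and 1.73%, 1.61% and 1.92% in non-induced libraries, and TCTAAACA had 7.27%, 7.40% and 7.78% at 250 ng and 1.81%, 1.80% and 1.78% in non-induced libraries.

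At 25 ng the double rose less than the single at position 2 in 16 pairs and more in 0, with a median difference of -0.13, and less than the 3′ single in 65 pairs and more in 0, with a median of -0.31 (limma, where 37.4% of all pairs were called lower and 0.595% higher). Over all doubles, 13.0% of pairs with the single at position 2 and 61.1% of pairs with the single at position 6, 7 or 8 were called lower. Against the single at position 2 the count was 11, 6 and 10 without replicate 1, 2 or 3 of the 25 ng libraries and 19, 10 and 18 without replicate 1, 2 or 3 of the non-induced libraries.

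A departure from the sum of the single changes was called in 29 of the 108 double substitutions at 250 ng, all upward, and was not called in the other 79. The departure from the sum is the double minus both singles plus the consensus form with the same base at position 5, in log2 odds, so that 0 is additivity on this scale. The test was limma over all 756 double substitutions for 250 ng against non-induced, and the background was 38.4% of those called upward and 0.132% downward. With an unadjusted p under 0.05, 40 of the 108 departed, and of all 756 doubles 368 departed upward and 2 downward. The median departure was 0.27, with 101 of 108 above 0, and 0.34 over all 756. The 27 elements of a base at position 5 share their consensus form, so their departures are not independent.

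The largest departures were those of elements with T7C. They were 0.96 in TTTAAACA (SE 0.16, limma adjusted p = 0.00187), 0.90 in TCTAAACA (SE 0.14, limma adjusted p = 0.00115), 0.75 in TTTATACA (SE 0.16, limma adjusted p = 0.00356) and 0.64 in TATAAACA (SE 0.13, limma adjusted p = 0.00356). TTTAACTA, with A6C, had 0.64 (SE 0.18, limma adjusted p = 0.0133). Of the 12 elements with T7C, 9 were called, with a median departure of 0.57, while 0 of the 12 with A8G were called and their median was 0.19. By base at position 2, 16 of 36 with G2C, 11 of 36 with G2T and 2 of 36 with G2A were called. The 4 departures with T7C held without any 1 library, and that of TTTAACTA did not pass without replicate 1 of the 250 ng libraries (limma adjusted p = 0.0549). The number called was 8, 11 and 14 without replicate 1, 2 or 3 of the 250 ng libraries and 18, 22 and 25 without replicate 1, 2 or 3 of the non-induced libraries. With the replicate number as a block it was 19.

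At 25 ng 27 double substitutions departed upward and 1 downward, with a median of 0.31 (limma, where 35.8% of all 756 were called upward and 0.265% downward). The number called was 11, 14 and 14 without replicate 1, 2 or 3 of the 25 ng libraries and 21, 20 and 30 without replicate 1, 2 or 3 of the non-induced libraries. The element that departed downward was TCTATAGA, with -0.41. At 250 ng its departure was among those below 0 that did not pass.

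The share of reads taken by each element was examined as a readout apart from editing. With edgeR's quasi-likelihood test, 0 of 108 double substitutions changed in reads at 250 ng, at 25 ng or with ADARcdMUT alone, each against non-induced libraries, and the background was 0% of all entries in each comparison. At an unadjusted p under 0.05, 40, 0 and 28 of the 108 differed in these 3 comparisons. Of the 40 at 250 ng, 22 were higher and 18 lower, and the 28 with ADARcdMUT were all lower. At the same threshold, 219 of all 1006 entries were higher and 211 lower at 250 ng. With ADARcdMUT 160 were higher and 95 lower, and at 25 ng 0 and 1. Other tests of the same reads gave other counts at 250 ng. DESeq2 called 11 more and 11 less abundant, where it called 16.3% of all entries more and 14.6% less abundant. With the replicate number as a block edgeR called 14 more and 6 less, against 13.7% and 12.9% of all entries, and in a fit of the 2 groups alone it called 30 more and 16 less, against 23.7% and 24.6%. At 25 ng each of these called 0. With ADARcdMUT, DESeq2 called 0 more and 5 less abundant, against 7.91% and 1.62% of the entries it tested, and the other fits called 0. The log2 change in reads ran between -0.26 in TCTAAAAA and 0.48 in TATATATT at 250 ng, between -0.06 and 0.06 at 25 ng, and between -0.34 in TTTATATT and 0.07 in TCTACAGA with ADARcdMUT. TATATATT thus had both the largest relative change in editing and the largest change in reads of the class at 250 ng, and the part of the latter in the former was not tested. Without ADARcdMUT replicate 3, edgeR called 5 less abundant with ADARcdMUT. The share of all entries called in that fit was not computed, so this count is not read as particular to the class.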

How the data were processed

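RBPscan recorder amplicons were sequenced in 12 HEK293T libraries, 3 for each of 4 groups. The deposited tables give, per element and library, counts of reads, of edited reads and of edits, and the percent of adenosines edited, which the authors computed as edits over 7 adenosines per read, as recomputing it from the deposited counts gave the same percent (largest difference 3.55e-15). The aligner and filtering of reads were not given in the sources used here. Molecular identifiers are not mentioned, so counts cover reads and not independent molecules. Of 1022 listed entries, the 1006 present in all 12 libraries were kept, and the lowest read count listed was 1015.

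In R 4.3.3, limma 3.58.1 (eBayes with trend) was fitted to log2((edits + 0.5)/(unedited adenosines + 0.5)) over all 12 libraries, as it stands or after subtracting each library's median, with Benjamini-Hochberg adjustment over all entries at 0.05. Differences of a double from its single substitutions, and departures from their sum, were formed within a library. They were fitted with limma, with eBayes without trend, over all 1512 pairs and 756 doubles. Reads were tested with edgeR 4.0.16, with DESeq2 1.42.0 as an alternative. The fitting code was tested on simulated data. Tables were joined in Python 3.11.15 with pandas 2.3.3 and numpy 2.4.6.

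Elements are named by rule. Those named are the called elements and the 5 highest and 5 lowest changes at 250 ng against non-induced, up to 3 called each way in the other comparisons, up to 5 called each way for the differences and departures at 250 ng, those with TGTA at positions 5 to 8 or with ATTTA, and the 3 highest and 3 lowest in non-induced libraries. The elements at the ends of the range of read changes, the element that departed downward at 25 ng and the fourth element lower than ADARcdMUT were named after their values were seen. The class and all lists were chosen with earlier results of these data known. The counting error of the edited share of an element's reads had library medians between 0.235 and 0.353 percentage points (1 SE). In reads per element, libraries of a group differed from each other by more than sampling noise. The alternatives tried were a pseudocount of 5, an arcsine square root scale, the edited share of reads, the 2 groups alone, the replicate number as a block, a minimum of 5000 reads, a quasi-binomial model and centring on entries without TGT (both only for relative changes), and leaving out each library.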

Additional observations from a re-analysis of the deposited data

How the results depend on the processing

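Counts of double substitutions called depended on the setting. Among the named elements, pairs and departures no called result reversed, and direction was followed one by one only for these. On the arcsine square root scale, 23 were called in place of 10 at 250 ng against non-induced, 23 in place of 11 at 250 ng against ADARcdMUT, 0 in place of 2 with ADARcdMUT against non-induced (1 in place of 2 in absolute editing), 67 and 30 against the single at position 2 at 250 ng and 25 ng, and 83 and 79 departures from the sum. In fits of the 2 groups alone the counts were 17 at 250 ng and 0 with ADARcdMUT against non-induced (0 in absolute editing), 6 at 250 ng and 2 at 25 ng against ADARcdMUT, 42 against the single at position 2 at 250 ng, and 46 for reads at 250 ng. With the edited share of reads they were 1 and 1 (absolute) with ADARcdMUT against non-induced, and 13 and 5 departures at 250 ng and 25 ng. The quasi-binomial model called 3 at 25 ng against non-induced and 0 with ADARcdMUT against non-induced. DESeq2 called 22 in reads at 250 ng and 5 with ADARcdMUT. The cause of these differences was not tested. For editing, the shares of all entries, pairs or doubles called under these settings were not computed. These counts are therefore not read as particular to the double substitutions.

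In editing relative to the library median, the replicate numbers showed no pairing of the libraries. There the correlations of same-numbered deviations ran between -0.0946 and 0.0737. Pairing in reads or in the library medians was not examined. With the replicate block the departures called at 250 ng were 19 in place of 29 and the reads called at 250 ng were 20 in place of 0, and the other counts stayed within 1.5 times.

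Leaving out 1 library, the counts relative to the library median ran from 4 to 10 at 250 ng and 0 to 6 at 25 ng against non-induced, 2 to 17 and 1 to 12 against ADARcdMUT, 2 to 6 with ADARcdMUT against non-induced and 0 to 0 between the amounts. The absolute counts ran from 0 to 21 with ADARcdMUT and were 108 in the other comparisons. Against the single at position 2 they ran from 13 to 31 at 250 ng and 6 to 19 at 25 ng, against the 3′ single from 58 to 69 and 52 to 66, and for departures from 8 to 25 and 11 to 30. For reads they ran from 0 to 5 with ADARcdMUT and were 0 in the other comparisons. The shares of all entries, pairs or doubles called in the fits that left out 1 library were not computed. With 3 libraries a group and a lowest count of 2878 reads for an element, small relative changes could have been missed. Counting error and spread between libraries are not separated here as parts of this limit.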

Other observations

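The 12 elements made only of A and T had a median level of 8.12% ± 0.284 at 250 ng and 1.70% ± 0.111 in non-induced libraries, and the other 96 had 7.69% ± 0.139 at 250 ng and 1.79% ± 0.0823 in non-induced libraries (mean of library medians ± SD, n = 3 libraries). Relative to the library median, the change at 250 ng against non-induced had a median of 0.16 over the 12 elements, of which 10 were above 0 and 3 were called higher, and of 0.01 over the other 96. These sets were described and not tested, and the 12 elements all carry G2A or G2T and have A or T at position 5, so they are built from the sets by base at positions 2 and 5 given above.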
